A study of Arabidopsis thaliana with 6 samples.

Results

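The genes described here are 10 *Arabidopsis thaliana* genes of the evening part of the circadian clock and of the ZEITLUPE (ZTL) family. They are TOC1 (AT5G61380), GI (AT1G22770), ELF3 (AT2G25930), ELF4 (AT2G40080), LUX (AT3G46640), BOA (AT5G59570), FKF1 (AT1G68050), ZTL (AT5G57360), LKP2 (AT2G18915) and CHE (AT5G08330). They were chosen by name, with results of the mutant and WT comparison in these same libraries already known, and with mutant replicate 3 set apart from the other mutant libraries. Their differences between genotypes are therefore given as descriptions. The numbers that passed a test are first printed beside the share of all genes, and nothing is read from them. All 10 are among the 37336 genes of the deposited table, and all 10 are among the 21751 genes with a mean normalized count of at least 10. RNA was taken from whole siliques after self-pollination, 1 to 5 days after pollination. The groups are 3 libraries of WT and 3 of the *eml1-2 eml3-4* double mutant, which carries mutant alleles of the EMSY-like (EML) histone reader genes EML1 and EML3. The labels give no accession for either genotype, no hour of harvest, and no statement that libraries came from separate plants. P-values therefore measure the spread between these libraries, which may be technical.

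The plant clock is a ring of transcription factors that hold each other down at successive times of day. CCA1 and LHY peak in the morning and repress evening genes through a promoter sequence called the evening element. TOC1 and the evening complex of ELF3, ELF4 and LUX act from dusk into the night and repress morning and daytime genes in turn. ZTL, LKP2 and FKF1 are blue light receptors that carry a LOV domain, an F-box and kelch repeats and mark clock and flowering proteins for degradation, with GI as a partner protein.

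Recovered depth ran from 26771227 to 39246167 reads per library. The targeted gene EML3 was at 2129 to 2718 in WT and at 173 to 198 in the mutant, 12.5-fold lower (limma adjusted p = 2.24e-06). EML1 overlapped between the groups, with 1190 to 1365 in WT and 1072 to 1236 in the mutant, so its level does not check the *eml1-2* allele. Mutant replicate 3, called mutant library 3 from here on as the others are by their replicate numbers, stood apart. Its 13 seed maturation markers, among them cruciferins, oleosins and 2S albumins, summed to 70686 normalized counts, against 236 and 289 in mutant libraries 1 and 2 and 797 to 1342 in WT. Of these markers 11 of 13 were highest in that library and 0 of 13 were called between genotypes in limma. Without that library limma called the seed regulator genes LEC1 (adjusted p = 0.000307), ABI3 (adjusted p = 0.00144) and FUS3 (adjusted p = 0.0312) lower in the mutant. With 6 libraries their limma adjusted p were 0.0551, 0.514 and 0.403. These genes are among the markers by which that library stood apart, so nothing is read from those calls. ABI3 was at 123 to 238 in WT, against 18.7, 21.3 and 606 in mutant libraries 1, 2 and 3. SESA5 was at 0 in the other 5 libraries. The summed level of 4 green tissue markers was 1149870 in mutant library 3, against 730192 to 866866 elsewhere. The summed levels of seed coat markers (16992 to 21724 over the 6 libraries) and silique wall markers (5593 to 6716) in mutant library 3 were within the range of the others. So was the endosperm sum (1850 to 2468), most of it from SUC5, but AGL62 at 79.4 and MINI3 at 36.5 were lowest in mutant library 3. Limma called 0 of 3 tested endosperm markers, 0 of 4 seed coat markers and 1 of 5 silique wall markers, SHP1, which was lower in the mutant. Without mutant library 3 it also called the seed coat marker GL2 lower (limma adjusted p = 0.00542). GL2 was at 2772 to 3446 in WT, against 1773, 1905 and 2781 in mutant libraries 1, 2 and 3. Pollen markers summed to 7625 to 14272 in WT and 7009 to 11037 in the mutant, but the sum is mostly SUC1 and the members moved in opposite directions. SUC1, a sucrose carrier gene, rose by 0.79 on the log2 scale, while PPME1, AT3G07820 and VGDH2 fell by 1.81, 1.34 and 1.37, with every mutant library below every WT library (limma adjusted p from 0.0213 to 0.0357 over the 4 genes). In whole siliques, fewer cells of a type and less RNA per cell cannot be told apart. The part of tissue make-up and of harvest hour in the values below was not tested.

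Among the evening genes, TOC1, GI, LUX and FKF1 shared one arrangement. In mutant libraries 1 and 2 each of these genes was below all WT libraries, while mutant library 3 lay inside the WT range. This arrangement held for 4 of 10 members and for 5.57% of all tested genes. Mutant libraries 1 and 2 were below every WT library for 6 of 10 members, with ELF3 and CHE added, and for 21.9% of tested genes. With all 3 mutant libraries below all WT libraries, CHE alone remained, 1 of 10 members against 12.8% of tested genes. No member had mutant libraries 1 and 2 above every WT library. The share of all tested genes with that arrangement is not given here, so nothing is read from it. Mutant library 3 exceeded both other mutant libraries in 9 of 10 members, all but ZTL, and in 40.1% of tested genes. It was over 1.5-fold above their mean, on the log2(count + 1) scale, for 6 of 10 members and 14.8% of tested genes. The median difference of that library from the other mutant libraries was 0.65 log2 units over the members and -0.00 over all tested genes.

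With 6 libraries limma called 0 of 10 members between genotypes, beside 6.79% of tested genes. EdgeR and DESeq2 on the recovered reads also called 0. Without mutant library 3 limma called 4 of 10 members, all lower in the mutant (TOC1, GI, LUX and FKF1). Beside this, 11.7% of tested genes were called in either direction and 6.49% were called lower. Nothing is read from these counts, since the list was drawn up with this contrast known. The median log2 difference between genotypes was -0.16 over the members and 0.00 over all tested genes, and without mutant library 3 it was -0.28 and 0.01.

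**Figure D1:**
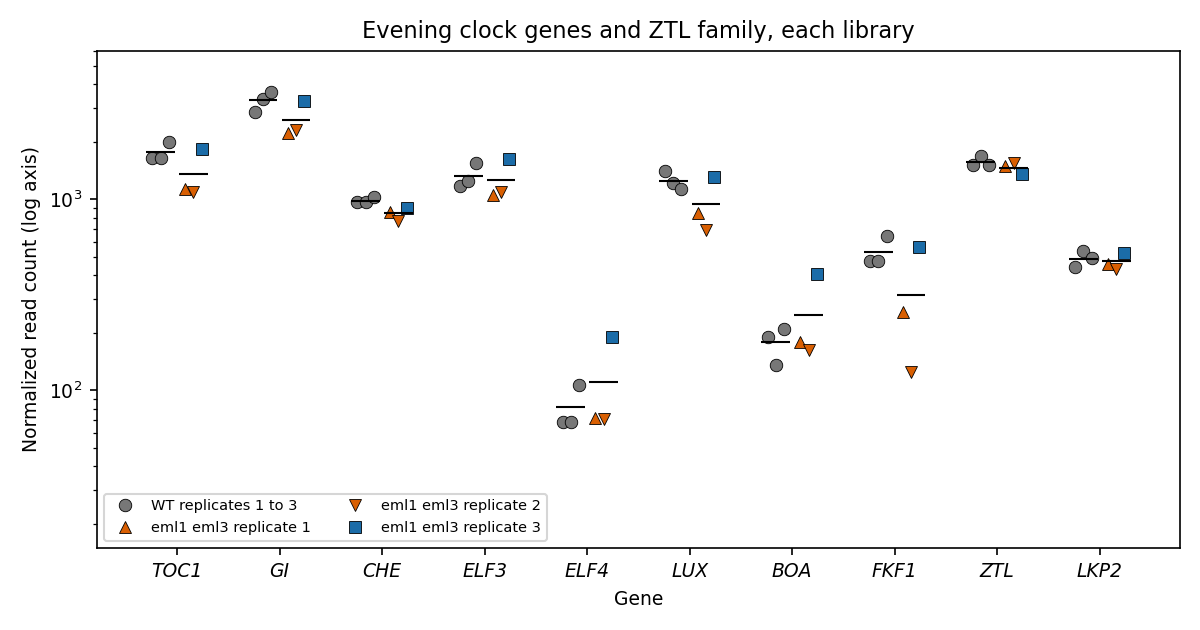
Normalized read count (log axis) of each of the 10 genes in each library, with WT as grey circles, mutant libraries 1 and 2 as orange triangles, mutant library 3 as blue squares and group means as horizontal lines. For TOC1, GI, LUX and FKF1 the orange triangles lie below all grey circles and the blue square lies among the circles, and for ELF4 and BOA the blue square lies above all other points.

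TOC1 encodes a pseudo-response regulator that represses CCA1, LHY and most other clock genes in the evening. Its normalized count was 1644, 1652 and 2000.0 in the WT libraries, in the order 1 to 3, against 1139, 1089 and 1826 in the mutant libraries. The first pair of mutant libraries was below the whole WT range and the third was inside it, so the groups overlapped. The log2 difference, mutant minus WT, was -0.42 ± 0.19 (SE, n = 3 per genotype), or -0.66 ± 0.13 (SE) without mutant library 3.

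GI encodes a large protein that holds ZTL and FKF1 in blue light and is needed for photoperiodic flowering. It was at 2881, 3349 and 3658 in WT and at 2225, 2316 and 3285 in the mutant, in the same order. Mutant library 3 was again within the WT range and the other mutant libraries below it. The log2 difference was -0.35 ± 0.16 (SE, n = 3 per genotype), or -0.53 ± 0.13 (SE) without mutant library 3.

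CHE encodes a TCP transcription factor that binds the CCA1 promoter and represses it, and the reference lists it under the symbol TCP11. Its values were 968, 964 and 1026 in WT and 863, 772 and 898 in the mutant. All mutant libraries were below all WT libraries, but the size was small, with a log2 difference of -0.23 ± 0.13 (SE, n = 3 per genotype). Leaving out mutant library 3 gave -0.27 ± 0.13 (SE), and unlike for TOC1 and GI, mutant library 3 was not within the WT range.

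The evening complex genes were not alike. ELF3, the scaffold of the complex, was at 1171, 1249 and 1556 in WT and at 1059.8, 1089.7 and 1622 in the mutant. Mutant libraries 1 and 2 were below all WT libraries and mutant library 3 was above them, so that the log2 difference was -0.09 ± 0.18 (SE, n = 3 per genotype).

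LUX, the DNA-binding subunit, is listed as PCL1 in the reference. It was at 1409, 1213 and 1135 in WT and at 844, 691 and 1309 in the mutant. As with TOC1, only mutant library 3 among the mutant libraries reached the WT range. The log2 difference was -0.45 ± 0.21 (SE, n = 3 per genotype), or -0.71 ± 0.15 (SE) without mutant library 3.

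BOA, a close relative of LUX that can also join the complex, did not share the LUX values. It was at 191, 135 and 211 in WT, at 180.1 and 163 in mutant libraries 1 and 2, and at 406 in mutant library 3. The first pair of mutant libraries lay within the WT range and the third was above every other library, 2.36-fold above the mean of the other mutant libraries. ELF4, a small protein that helps ELF3 in the complex, had the same arrangement at a lower level. It was at 68.8, 68.6 and 107 in WT, at 71.4 and 70.9 in mutant libraries 1 and 2 and at 192 in mutant library 3. ELF4 thus stood 2.67-fold higher in mutant library 3 than in the other mutant libraries. These ELF4 values rest on 70 to 152 reads per library, the fewest of any member. The log2 differences were 0.37 ± 0.35 for BOA and 0.31 ± 0.44 for ELF4 (SE, n = 3 per genotype), and turned to -0.04 and -0.16 without mutant library 3.

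Some of these genes overlap others. LUX shares 17.8% of its exon bases with AT3G46650, and BOA shares 45.9% with UGT76E1, both on the opposite strand. UGT76E1 was at 0 in all 6 libraries and AT3G46650 at no more than 2.52. Whether reads were counted by strand is not stated, so reads in the shared bases cannot be assigned to one gene, and the LUX and BOA values are uncertain to that extent. LKP2 shares 15.8% with a long noncoding RNA, AT2G18917, which was at no more than 1.62. The coding sequences of LUX and BOA were 75.8% identical, with a longest exact shared stretch of 44 bases. No member had a near-identical copy, set as 95% identity over at least 150 bases of transcript.

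In the ZTL family the values of FKF1 were spread widest and those of ZTL and LKP2 least. FKF1, which degrades the CDF repressors of flowering in the afternoon, was at 475, 478 and 643 in WT. In mutant libraries 1, 2 and 3 it was at 257, 126 and 561. The lowest mutant library was far below the lowest WT library, and mutant library 3 was inside the WT range. The log2 difference was -0.999 ± 0.43 (SE, n = 3 per genotype), or -1.54 ± 0.30 (SE) without mutant library 3. FKF1 in mutant library 3 stood 3.11-fold above the other mutant libraries, the widest such gap among the 10 genes.

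ZTL, which degrades TOC1 and PRR5 and whose RNA is known to stay nearly level through the day, was at 1514, 1694 and 1517 in WT and at 1497, 1552 and 1352 in the mutant. The groups overlapped, and ZTL was the one member with its lowest mutant value in mutant library 3. The log2 difference was -0.10 ± 0.12 (SE, n = 3 per genotype). LKP2, the third family member, was at 442, 538 and 492 in WT and at 462, 433 and 527 in the mutant. The groups overlapped here too, with a log2 difference of -0.05 ± 0.17 (SE, n = 3 per genotype).

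Per kilobase of exon, ZTL made up most of the summed signal of the family, and the shares of FKF1 and ZTL both varied. The FKF1 share was 21.3%, 19.3% and 26.3% in WT libraries 1, 2 and 3. In the mutant it was 12.8%, 6.59% and 24.9%. The ZTL share was 66.0% and 72.4% in mutant libraries 1 and 2, and 53.4% to 60.7% in the other 4 libraries. The LKP2 share stayed between 18.3% and 21.7% in all 6 libraries. The coding sequences of ZTL and LKP2 were 73.7% identical and those of ZTL and FKF1 68.6%, and the longest exact stretch shared by any family pair was 20 bases.

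**Figure D2:**
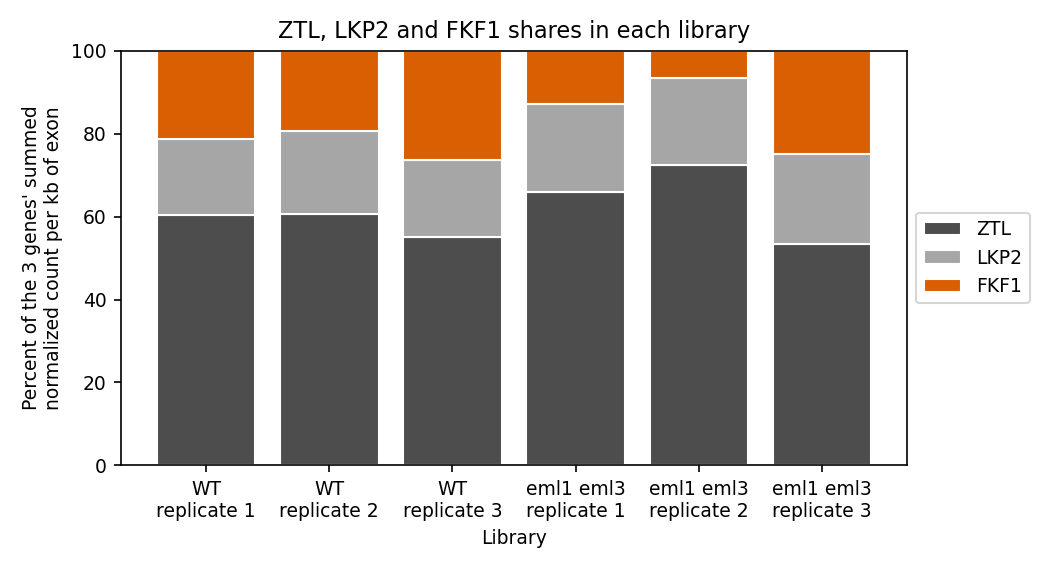
Share of each ZTL family gene in their summed normalized count per kilobase of exon (percent, stacked to 100), for each of the 6 libraries. The FKF1 part is smallest in mutant library 2 (6.59%) and mutant library 1 (12.8%), and is 24.9% in mutant library 3 against 19.3% to 26.3% in WT.

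On the same scale of normalized count per kilobase of exon, GI had the highest level in WT, 766 ± 91.0 (SD, n = 3). ZTL followed at 645 ± 42.1 (SD, n = 3), TOC1 at 629 ± 72.4 (SD, n = 3) and CHE at 619 ± 21.7 (SD, n = 3). Neighbours in this order from GI to CHE had overlapping WT ranges. ELF3 was next at 482 ± 74.1 (SD, n = 3), below the range of CHE, and LUX after it at 319.8 ± 36.0 (SD, n = 3), below the range of ELF3. LUX, FKF1 (245 ± 44.3; SD, n = 3) and LKP2 (209 ± 20.5; SD, n = 3) overlapped as neighbours. ELF4 at 132 ± 35.9 (SD, n = 3) and BOA at 49.0 ± 10.7 (SD, n = 3) were each below the range of the gene before. By mutant means GI, ZTL, CHE, TOC1, ELF3 and LUX held the first 6 places, and FKF1 moved from place 7 to place 9, at 145 ± 103 (SD, n = 3). The mutant order differed between libraries. ZTL was above GI in mutant libraries 1 (613 against 517) and 2 (636 against 538), and below it in mutant library 3 (554 against 763). The mutant range of FKF1, 57.9 to 259, overlapped those of LKP2 (185 to 225) and ELF4 (115 to 309), so its place is uncertain. The exon lengths of LUX and BOA include long reference transcripts, which lowers their values per kilobase if those transcripts are rare in siliques.

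Ratios within a library set the evening genes against the morning genes without any scaling between libraries. LHY and CCA1 are the morning MYB repressors, and LHY counts ran from 505 to 661 in WT, against 3039, 3970.0 and 905 in mutant libraries 1, 2 and 3. The ratios are not per length, so they are read between libraries and not as one gene exceeding the other. The log2 ratio of LHY to TOC1 was -1.70, -1.32 and -1.77 in WT libraries 1, 2 and 3. In mutant libraries 1, 2 and 3 it was 1.42, 1.87 and -1.01. The first pair of mutant libraries stood far above the rest, and mutant library 3 was nearer to the WT range but still above it. The log2 ratio of CCA1 to TOC1 was ordered the same way, between -1.62 and -1.14 in WT, and 0.61, 0.85 and -0.93 in mutant libraries 1, 2 and 3. TOC1 against GI, both evening genes, had overlapping groups, with -1.02 to -0.81 in WT and -1.09 to -0.85 in the mutant.

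Within the evening group the ratio of LUX to BOA separated the genotypes with no overlap. Its log2 value was 2.87, 3.16 and 2.42 in WT and 2.22, 2.08 and 1.69 in the mutant. Mutant libraries 1 and 2 had LUX below its WT range with BOA inside its own, and mutant library 3 had LUX inside its WT range with BOA above its own. This pair was 1 of 12 ratios computed, and it was chosen for mention after its values were seen. FKF1 against ZTL was between -1.82 and -1.24 in WT, and -2.54, -3.62 and -1.27 in mutant libraries 1, 2 and 3.

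**Figure D3:**
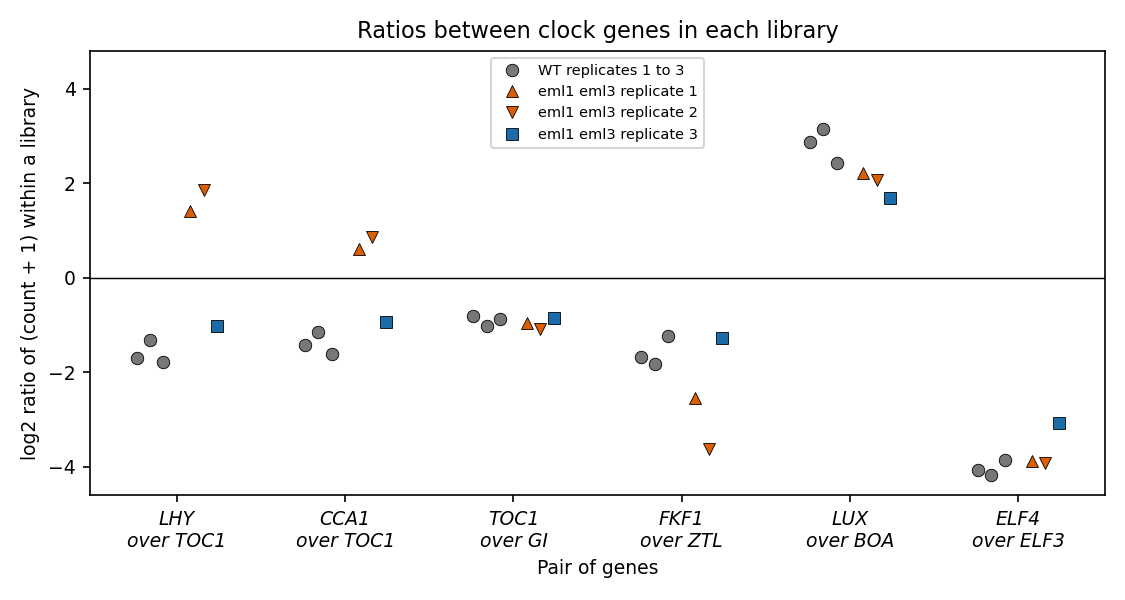
Log2 ratio of normalized counts plus 1 for 6 pairs of clock genes within each library, with symbols for WT, mutant libraries 1 and 2, and mutant library 3 as named in the key. LHY over TOC1 lies above 0 in mutant libraries 1 and 2 (1.42 and 1.87) and below 0 in the other 4 libraries, and TOC1 over GI overlaps between the genotypes.

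The promoters of the evening genes were read for the sequences these factors bind. The window ran from 250 bases before to 50 bases after each gene's start in the RefSeq annotation of TAIR10.1, and all 10 genes were matched. The evening element, AAAATATCT on either strand, was present in 4 of 10 members and in 2.82% of 27443 protein-coding genes. The members are TOC1 (match from position -151), LUX (-53), BOA (-43) and FKF1 (-186, and again from position 1), where -1 is the last base before the start. TOC1, LUX and FKF1 are among the 6 members below every WT library in mutant libraries 1 and 2. GI, ELF3 and CHE, the others of those 6, had no match in this window, and BOA, with a match, is not one of them. The upstream 250 bases of these genes are shown because they carry the element, which is in capitals and reads as AGATATTTT where it lies on the other strand. In TAIR10.1 they lie at chr5:24674713-24674962 (TOC1), chr3:17182792-17183041 (LUX), chr5:24003638-24003887 (BOA) and chr1:25508389-25508638 (FKF1), all on the plus strand. These are coordinates of the reference and not of the deposited files.
TOC1: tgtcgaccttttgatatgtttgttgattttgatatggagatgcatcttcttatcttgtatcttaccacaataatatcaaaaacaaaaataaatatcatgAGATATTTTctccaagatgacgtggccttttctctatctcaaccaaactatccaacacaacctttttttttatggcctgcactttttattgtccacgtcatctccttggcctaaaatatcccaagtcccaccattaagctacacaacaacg
LUX: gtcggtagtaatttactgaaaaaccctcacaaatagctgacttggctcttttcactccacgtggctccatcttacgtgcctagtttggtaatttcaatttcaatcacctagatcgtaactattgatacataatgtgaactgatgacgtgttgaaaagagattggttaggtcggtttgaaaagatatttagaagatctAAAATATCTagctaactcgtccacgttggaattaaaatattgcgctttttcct
BOA: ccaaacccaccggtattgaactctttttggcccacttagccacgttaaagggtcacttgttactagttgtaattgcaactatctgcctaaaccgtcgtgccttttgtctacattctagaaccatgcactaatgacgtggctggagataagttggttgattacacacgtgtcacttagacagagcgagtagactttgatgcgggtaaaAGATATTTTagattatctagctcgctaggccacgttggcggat
FKF1: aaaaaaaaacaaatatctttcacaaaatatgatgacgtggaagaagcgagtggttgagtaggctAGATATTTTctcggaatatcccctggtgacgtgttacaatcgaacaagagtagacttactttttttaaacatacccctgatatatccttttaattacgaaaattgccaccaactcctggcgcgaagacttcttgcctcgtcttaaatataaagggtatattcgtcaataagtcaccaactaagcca

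Other elements were also searched. The site bound by LUX, GATACG or GATTCG, matched in 3 of 10 members (ELF3, ELF4 and LKP2) and in 14.5% of all promoters. The G-box CACGTG matched in LUX and BOA and in 7.68% of all promoters. The CCA1 site, AAAAATCT or AACAATCT, matched in ELF3 and LKP2 and in 9.93%. The TCP site GGNCCC, the kind that CHE binds, matched in ZTL and in 8.68%. Both strands were searched and no matches overlapped. A match is a description of the sequence and does not show binding in siliques.

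The other clock and light genes were taken from 7 lists with 79 tested members of 83, since TSF, COL1, PIF6 and IAA29 were under the minimum mean. These lists too were chosen with earlier results of these data known, so the counts and medians of all 7 are descriptions. Limma called 7 higher and 3 lower in the mutant, beside 3.69% and 3.10% of all tested genes. Without mutant library 3 it called 11 higher and 9 lower, beside 5.18% and 6.49%. Of 14 morning MYB and LNK genes 3 rose and 0 fell, and the list's median log2 difference was 0.33. CCA1 rose 2.22-fold (limma adjusted p = 0.0181), LHY 3.82-fold (limma adjusted p = 0.0248) and LNK3, a co-activator of evening element genes, 1.80-fold (limma adjusted p = 0.0383). EdgeR called the same 3 genes, and DESeq2 called 4 higher and 1 lower, with RVE8 added as higher and RVE7 as lower. In limma without mutant library 3 RVE8, LNK2 and LNK4 were added as higher and RVE7 as lower. RVE8, an activator of evening genes, had counts of 205 to 317 in WT, against 493, 647 and 312 in mutant libraries 1, 2 and 3. RVE7 has a near-identical copy, so its value is uncertain.

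Of 4 daytime PRR genes, relatives of TOC1, PRR7 fell 1.54-fold (limma adjusted p = 0.0222) and 0 rose, with a list median of -0.41. PRR7 was at 3355 to 4718 in WT and at 2556 to 2768 in the mutant. Unlike TOC1, it was as low in mutant library 3 as in the other mutant libraries. PRR3, which binds TOC1 and protects it from ZTL, was called lower without mutant library 3. Its counts were 379.8, 596 and 622 in WT, against 182, 218 and 475 in mutant libraries 1, 2 and 3.

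Of 21 clock partners and interactors of ZTL or GI, limma called 0 with 6 libraries, as did edgeR and DESeq2. The list median was 0.10. TZP (limma adjusted p = 0.236), with a mean of 739 in the mutant and 563 in WT, and PRMT5 (limma adjusted p = 0.306), with means of 1078 and 857, had the smallest p. Without mutant library 3 the histone demethylase gene JMJ30, which peaks in the evening, was called lower. JMJ30 counts ran from 307 to 388 in WT, against 115, 121 and 548 in mutant libraries 1, 2 and 3. HSP90.2, whose product stabilises ZTL, had means of 11154 in WT and 12833 in the mutant and did not pass (limma adjusted p = 0.373), nor did the SCF subunit genes ASK1 (limma adjusted p = 0.600) and CUL1 (limma adjusted p = 0.65).

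Of 10 photoreceptor genes, all tools named above called 0, and the list median was 0.04. The smallest p was that of CRY2 (limma adjusted p = 0.192), a cryptochrome gene with means of 3134 in the mutant and 3791 in WT. Next was PHYD (limma adjusted p = 0.206), a phytochrome gene with means of 481 and 323. PHYD was called higher without mutant library 3. Of 8 tested photoperiod flowering genes COL2, a relative of CONSTANS, rose 2.09-fold (limma adjusted p = 0.00212) and 0 fell, with a list median of 0.20. COL2 was at 550.2 to 643 in WT and at 1144 to 1453 in the mutant, and it shares 22.4% of its exon bases with AT3G02390, which was at 0, and 9.40% with AT3G02370, which was at no more than 60.7, so its level is uncertain to that extent. CDF1, whose product FKF1 degrades, had means of 542 in WT and 536 in the mutant. FT, the flowering signal, had means of 5618 and 6515 and was highest in mutant library 3, at 8774. CO counts ran from 5.64 to 33.3 over the 6 libraries, and no difference was detectable at that depth.

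Of 10 tested PIF and growth genes, which the evening complex represses in part, limma, edgeR and DESeq2 each called 0, with a list median of 0.05. PIL1 (limma adjusted p = 0.0783) had means of 451 in the mutant and 307 in WT, and PIF7 (limma adjusted p = 0.103) of 184 and 293. PIF4, a direct target of the evening complex, was called lower without mutant library 3, with counts of 532, 459 and 811 in mutant libraries 1, 2 and 3 against 702 to 919.8 in WT. Of 12 clock output genes 3 rose and 2 fell, with a list median of 0.06. BBX25 rose 1.74-fold (limma adjusted p = 0.00854), BBX19 2.25-fold (limma adjusted p = 0.0328) and the morning-phased catalase gene CAT2 1.42-fold (limma adjusted p = 0.0462). The evening-phased catalase gene CAT3 fell 1.86-fold (limma adjusted p = 0.0203), from 84980 to 46942.5, and COR28 fell 2.33-fold (limma adjusted p = 0.0441), from 247 to 109. BBX25 and CAT2 share 3.79% and 3.43% of their exon bases with other genes. COR27 and GRP7 were called lower without mutant library 3. COR27 counts ran from 191 to 248 in WT, against 84.4, 41.5 and 523 in mutant libraries 1, 2 and 3.

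Most of these 10 calls were lost when single libraries were left out. COL2 passed under all 18 alternatives. CCA1, LHY, LNK3, CAT3, COR28 and CAT2 lost their calls without any one of WT libraries 1, 2 and 3 or mutant libraries 1 and 2. PRR7 lost its call without WT library 2 or 3 or without mutant library 1 or 2, BBX25 without WT library 2 or mutant library 1 or 2, and BBX19 without WT library 1 or 2 or mutant library 1 or 2. Some calls were also lost under other processing of all 6 libraries. LHY was lost with a robust variance prior (limma adjusted p = 0.14), LNK3 with rescaling to one total (limma adjusted p = 0.0561) and COR28 with no filter on low values (limma adjusted p = 0.0593). CAT2 was lost with no filter (limma adjusted p = 0.066), rescaling (limma adjusted p = 0.0806) and quantile normalization (limma adjusted p = 0.0922). Over the alternatives the adjusted p of each of these genes other than COL2 reached at most 0.203, and none changed direction. Calls over the lists numbered 3, 1 and 3 when WT libraries 1, 2 or 3 were left out, and 1, 1 and 20 when mutant libraries 1, 2 or 3 were.

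**Figure D4:**
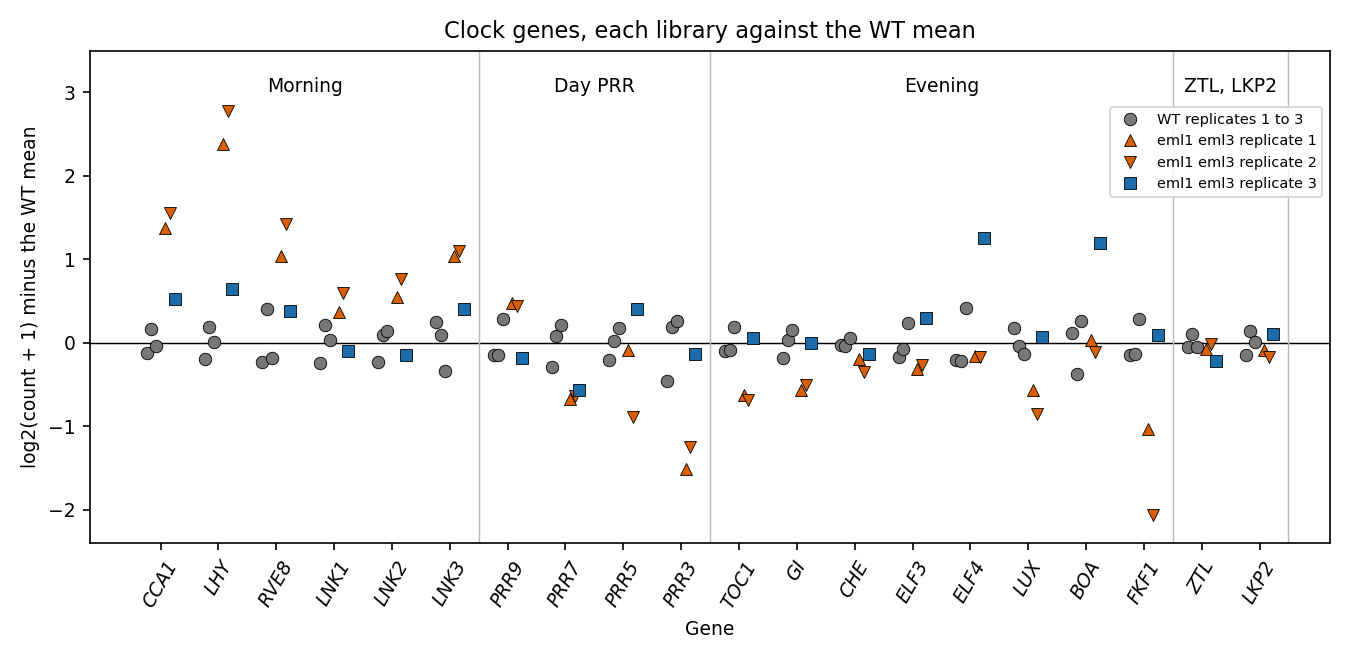
Log2(count + 1) of 20 clock genes in each library, minus the mean of the 3 WT libraries, with genes grouped as morning, day PRR, evening and the pair of ZTL and LKP2. Mutant libraries 1 and 2 (orange) lie above 0 for the 6 morning genes drawn, which were picked from a list of 14. They lie below 0 for TOC1, GI, CHE, ELF3, LUX and FKF1, and mutant library 3 (blue) lies nearer to 0 for TOC1, GI, LUX and FKF1. Of the morning genes not drawn, RVE1 and LNK4 were above every WT library in mutant libraries 1 and 2, and RVE5 and RVE7 below. RVE2, RVE3, RVE4 and RVE6 overlapped WT.

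The gene most like each member was sought among 18448 genes with a mean of at least 50, by Pearson r of log2(count + 1) over the 6 libraries. With 6 libraries of 2 genotypes many genes reach a high r, so these are descriptions with no p. TOC1 was matched best by ATL5 (AT3G62690; r = 0.994), with 162 genes above 0.95. GI was matched best by SIS3 (AT3G47990; r = 0.995), and LUX by AT1G33970 (r = 0.996), with 232 genes above 0.95, the most of any member. FKF1 was matched best by AT4G33985 (r = 0.994), with counts of 145 to 172 in WT, against 107, 66.8 and 149.9 in mutant libraries 1, 2 and 3. For ELF3 the gene was EMB3114 (r = 0.998), for ELF4 AT2G31141 (r = 0.997), for BOA ZYP1b (r = 0.991) and for CHE TDX (r = 0.996). LKP2 had the fewest genes above 0.95, 13, with AT1G33780 (r = 0.988) first, and ZTL had 33, with AT1G31910 (r = 0.997) first.

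The authors' deposited table gives the same signs for the 10 members. It comes from these same libraries, so the equal signs are no separate check. Its log2 fold changes were -0.39 for TOC1, -0.34 for GI, -0.40 for LUX and -0.76 for FKF1, with standard errors of 0.20, 0.17, 0.22 and 0.61. In the authors' deposited table ELF4 was at 0.45 and BOA at 0.48, and ZTL, LKP2, ELF3 and CHE were between -0.22 and -0.05.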

How the data were processed

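Per the file headers, the deposited matrix holds a signal that the authors obtained from DESeq2: read counts per gene, scaled by a size factor for each library. The submitters' processing notes list DESeq2, featureCounts, Subread, SAMtools, STAR 2.5.2a and Trim Galore in no stated role. The sources used here do not give the build, annotation or strand setting. Dividing each library by its smallest nonzero value gave whole numbers for 100% of values (tolerance 1e-06). These were taken as the reads, and edgeR on them called 1403 genes against 1476 in limma. The second deposited file holds the authors' log2 fold changes, p-values and test score, per the file headers, and only its log2 fold changes and their standard errors are printed.

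Genes averaging at least 10 were fitted in limma 3.58.1 under R 4.3.3, on log2(value + 1) with trended variance and genotype as the only term, two-sided, with Benjamini-Hochberg adjustment over all tested genes at 0.05. Fold changes are on that scale, which understates low genes. The method was tested on simulated data. Values are mean ± SD over libraries. The members and lists were chosen with earlier results of these data known. The text names all 10 members, each list gene past the threshold, the 2 genes of smallest p in a list without calls, and genes named after their values were seen (those called without mutant library 3, HSP90.2, ASK1, CUL1, CDF1, FT and CO). Alternatives were pseudocounts of 0.5 and 5, other filters, a robust prior, other scalings, a replicate block, each library left out, edgeR 4.0.16 and DESeq2 1.42.0. Symbols, exons and promoters came from RefSeq TAIR10.1, which held 37051 of 37336 gene IDs, and copies from BLAST 2.17.0.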

Additional observations from a re-analysis of the deposited data

How the results depend on the processing

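With 3 libraries per genotype, the differences of several evening genes depended on whether mutant library 3 entered. Limma calls over all tested genes ran from 573 to 2537 when one library was left out, calls over the pathway lists from 1 to 20, and calls among the 10 members from 0 to 4, the highest in each case without mutant library 3. DESeq2 called 2397 genes in all, against 1476 in limma, and rescaling to one total gave 615 higher and 863 lower in place of 802 and 674. TOC1, GI, LUX, FKF1, ZTL and CHE were lower in the mutant under all 18 alternatives, with ranges of -0.66 to -0.29, -0.53 to -0.25, -0.71 to -0.25, -1.54 to -0.47, -0.17 to -0.05 and -0.29 to -0.16 log2 units. ELF3 (-0.29 to 0.03) turned without mutant library 1 and without WT library 3, LKP2 (-0.13 to 0.02) without either library numbered 2, and ELF4 (-0.16 to 0.55) and BOA (-0.04 to 0.62) without mutant library 3. The cause was not tested. The alternatives refit the same libraries, so a kept sign is no separate evidence of a difference between genotypes. With all libraries the groups overlapped for TOC1, GI, LUX, FKF1 and ZTL. ELF4, with the fewest reads, is the member whose precision depth limits most.

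The labels link same-numbered libraries by number only. Their deviations from the group means correlated at -0.0788, -0.00199 and -0.169. For differently numbered libraries the correlations ran from -0.141 to 0.169. Deviations within a group cancel out, so these values depend on each other and nothing is read from them. Depths of same-numbered libraries were close, with 39246167 reads in the mutant and 38196040 in WT for number 1. They were 31569842 and 31503946 for number 2, and 26771227 and 27046107 for number 3. Whether they share a batch or a harvest was not tested. With a replicate block limma called 1203 genes and edgeR 1009, and 0 of 10 members in each. The limma SE with the block was 0.13 against 0.19 without it for TOC1 and 0.31 against 0.43 for FKF1. For LKP2 it was 0.169 against 0.166. BBX19 lost its call with the block in limma and edgeR, and CAT2 in edgeR.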
